A study of Mus musculus with 21 samples.

Results

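Doxorubicin and ionizing radiation, both of which damage DNA, were set against each other in CD24hi Mist1+ cells of the mouse small intestine. The comparison used 4 of the 21 arrays of the series, taken by their labels alone: 2 arrays of CD24hi cells after doxorubicin (spelled doxorubucin in the labels) and 2 of CD24hi cells after irradiation with 10 Gy. In the whole series TdTomato+ cells, titled Mist1+ by the submitters, were parted by flow cytometry into a CD24hi and a CD24lo fraction, and each fraction was profiled in 5 conditions with 2 arrays apiece, beside 1 array of whole intestine. Untreated CD24hi cells (2 arrays) and the CD24lo cells of the same 2 injuries (4 arrays) are given beside the comparison, and Lgr5-ablated and NICD-expressing cells entered only the estimate of spread. The labels used here give no dose of doxorubicin and no time after either injury, so the injuries are compared at doses and times that may differ. They give no strain, age, sex or driver of the reporter, and do not say whether animals were pooled or whether replicates came from separate animals. The p-values therefore measure only the spread between these samples, which may in part be technical. In 4 of the 10 groups, described below, the replicates came from different animals. For the 4 arrays compared this is not known.

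Radiation breaks DNA directly and through reactive oxygen, and doxorubicin traps topoisomerase II on DNA and leaves breaks behind. Breaks activate the kinases ATM and ATR, which stabilise the transcription factor p53. p53 then induces the cell cycle inhibitor p21 (Cdkn1a), feedback genes such as Mdm2, and cell death genes, and genes of replication and mitosis are lowered in arrested cells. In the small intestine the dividing cells lie in the crypt, where Lgr5-expressing stem cells sit between Paneth cells, and both injuries are known to kill crypt cells that then regenerate.

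Values are levels on the log2(signal + 16) scale, given for replicate 1 and then replicate 2. A difference is the doxorubicin mean minus the irradiated mean ± its standard error from the limma fit, with n = 2 arrays a group. A gene is called where its p-value, adjusted by Benjamini-Hochberg over the 11854 genes tested, was under 0.05. The signal of a whole fraction cannot tell fewer cells of a type from less RNA per cell.

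The median signal of the 4 arrays lay between 136 and 144, and the 2 arrays of a pair correlated at 0.985 after doxorubicin and 0.968 after irradiation across genes, which are not independent replicates. The gap between replicates had a median of 0.15 after doxorubicin and 0.24 after irradiation. The cre spike-in control had a signal of 32202 and 31427 after doxorubicin and 25027 and 25951 after irradiation, and its part in the differences was not tested. Among the arrays that entered only the spread, CD24hi NICD replicate 2 stood apart, with a cre signal of 59464 against 19375 to 40251 in the other sorted arrays, and without it 632 genes were called between the injuries in place of 540. CD24 itself (Cd24a) read 14.23 and 14.16 after doxorubicin and 14.26 and 14.22 after irradiation. The Mist1 gene, Bhlha15, read 10.91 and 10.82 against 12.21 and 11.34, a difference of -0.91 ± 0.26 with adjusted p = 0.061. Bhlha15 was called with a pseudocount of 64, with quantile normalization, without irradiated replicate 2 (adjusted p = 0.00948) and with the Xist term described below (-1.12, adjusted p = 0.0288). Paneth cell markers were high in all 4 arrays, as in Lyz1 at 13.72 and 13.51 after doxorubicin and 14.13 and 14.33 after irradiation. Goblet cell markers were also high, with Muc2 at 14.28 to 14.44.

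One property of the arrays runs parallel to the injury. Xist, the RNA that silences the second X chromosome of female cells, read 13.65 and 13.56 after doxorubicin and 6.35 and 5.84 after irradiation. The Y-linked gene Eif2s3y read 4.92 and 4.93 after doxorubicin and 10.73 and 11.39 after irradiation. Kdm5d and Uty, also Y-linked, followed Eif2s3y, at 4.07 to 5.09 against 8.89 to 9.57. Both doxorubicin arrays thus carried the female pattern and both irradiated arrays the male pattern, and the CD24lo arrays did the same, with Xist at 13.42 and 13.68 against 5.60 and 6.21. Sex and injury cannot be told apart between these arrays. The untreated CD24hi pair held 1 array of each pattern, the male one first (Xist 6.71) and the female one second (Xist 13.55), so the untreated values below show each gene in both. In 4 of the 10 groups the replicates were mixed in this way, so there they did not come from the same animals. The spread of those groups entered the shared estimate and includes any difference by sex. Of 5 tested Y-linked genes 0 were called between the injuries. The same gap stood within the mixed pairs, as in untreated CD24hi cells with Eif2s3y at 11.22 and 5.4, and so widened the spread. Genes that differ by sex could therefore hardly be called, and this 0 says nothing on the part of sex in the calls. The mixed groups let a term for the Xist pattern be added to the fit, an alternative chosen after seeing these values. With it 1038 genes were called, all 540 genes called without it kept their sign, and 346 of the 440 higher and 76 of the 100 lower genes kept their call.

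Of the 11854 genes, 540 (4.56%) were called between the injuries in CD24hi cells. After doxorubicin 440 genes (3.71%) were higher and 100 (0.844%) were lower than after irradiation, and 2133 genes had an unadjusted p under 0.05. The median difference over all genes was 0.0. Among the higher genes 354 differed by more than 1 and 76 by more than 2, against 41 and 14 of the lower genes. The largest called differences were those of Car4, a carbonic anhydrase of the enterocyte surface, at 3.89 ± 0.67 (adjusted p = 0.00226), and Cxcl9, a chemokine that interferon gamma induces, at 3.86 ± 0.47 (adjusted p = 0.000141). Ceacam10 followed at 3.67 ± 0.61 (adjusted p = 0.00175). The most negative was that of Wfdc18, a secreted protein with a whey acidic protein domain, at -3.47 ± 0.49 (adjusted p = 0.000476). The count rested in part on the irradiated array labelled replicate 1, in which 369 of the 440 higher genes read lower than in replicate 2. It was 119 without that array and 510 without the other irradiated array, and 179 and 161 without doxorubicin replicate 1 and 2.

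**Figure D1:**
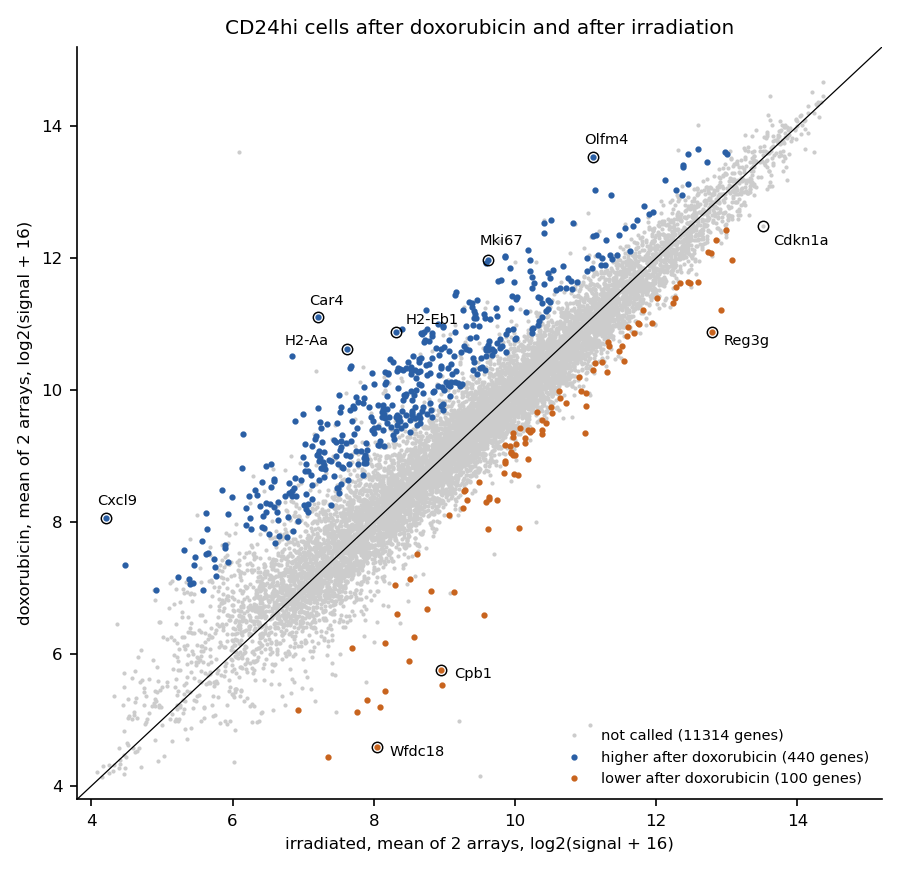
Each point is 1 of 11854 genes in CD24hi cells, with the mean of the 2 irradiated arrays on the horizontal axis and the mean of the 2 doxorubicin arrays on the vertical axis, both as log2(signal + 16). The 440 genes called higher after doxorubicin (blue) lie above the line of equality and the 100 called lower (orange) below it, with 11314 genes not called in grey; circled genes are named.

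Against untreated CD24hi cells, doxorubicin changed 142 genes (1.2%), of which 95 (0.801%) were higher and 47 (0.396%) lower. Irradiation changed 526 genes (4.44%), of which 131 (1.11%) were higher and 395 (3.33%) lower. Without untreated replicate 1 or 2 the counts were 82 and 29 for doxorubicin and 242 and 323 for irradiation. These comparisons share arrays with each other and with the direct one, so their values are set side by side below and their agreement is not counted.

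The broadest difference lay in genes of mitosis. Of 34 tested members of the mitosis and G2/M list, 31 were higher after doxorubicin and 0 were lower, with a median difference of 1.94 against 0.0 over all genes. In each of the 34 both doxorubicin arrays read above both irradiated arrays. Over all genes the 2 pairs did not overlap in 57.3%, counting both directions. Over the list the mean level was 10.50 and 10.50 after doxorubicin, 8.29 and 8.99 after irradiation, and 10.28 and 10.12 in untreated cells. The doxorubicin arrays thus stood close to the untreated ones, while the irradiated arrays were low. Against untreated cells 0 members were called after doxorubicin (median 0.30; 6 at an unadjusted p under 0.05 with limma) and 30 were lower after irradiation (median -1.65).

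Mki67, the proliferation antigen Ki-67, read 12.01 and 11.94 after doxorubicin, 9.06 and 10.17 after irradiation, and 11.57 and 11.78 in untreated cells. The irradiated arrays were the low ones, and the difference between injuries was 2.36 ± 0.31 (adjusted p = 0.000264). Hmmr, a spindle-associated hyaluronan receptor, had the largest difference of the list. It read 10.18 and 10.48 against 7.34 and 8.0, with 9.98 and 9.51 in untreated cells, a difference of 2.67 ± 0.27 (adjusted p = 4.25e-05). Foxm1, a transcription factor that drives G2/M genes, read 9.52 and 9.53 after doxorubicin and 6.32 and 7.45 after irradiation, and differed by 2.64 ± 0.39 (adjusted p = 0.000634). The mitotic kinase Aurkb read 10.08 and 10.0 against 7.71 and 8.01, with no overlap and a difference of 2.18 ± 0.21 (adjusted p = 4.25e-05). Top2a, the topoisomerase that doxorubicin traps, read 11.26 and 11.48 after doxorubicin, 9.05 and 9.87 after irradiation, and 11.54 and 11.64 in untreated cells, a difference of 1.91 ± 0.27 (adjusted p = 0.000486). Its level after the drug was therefore near that of untreated cells, with a difference of -0.22 from them (adjusted p = 0.824). Other probe sets differed less, by 0.68 to 1.81 for Hmmr, 0.56 and 0.79 for Foxm1 and 0.72 for Top2a. With the mean of probe sets 31 members of the list were called higher, with a median of 1.74. The members not called were Plk1 (0.55, adjusted p = 0.228), Ube2c (0.75, adjusted p = 0.0772) and Ndc80 (1.33, adjusted p = 0.154). With the Xist term 31 members were again called higher, with a median of 1.84. Without irradiated replicate 1 the count was 23, and it was 28 without either doxorubicin array.

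**Figure D2:**
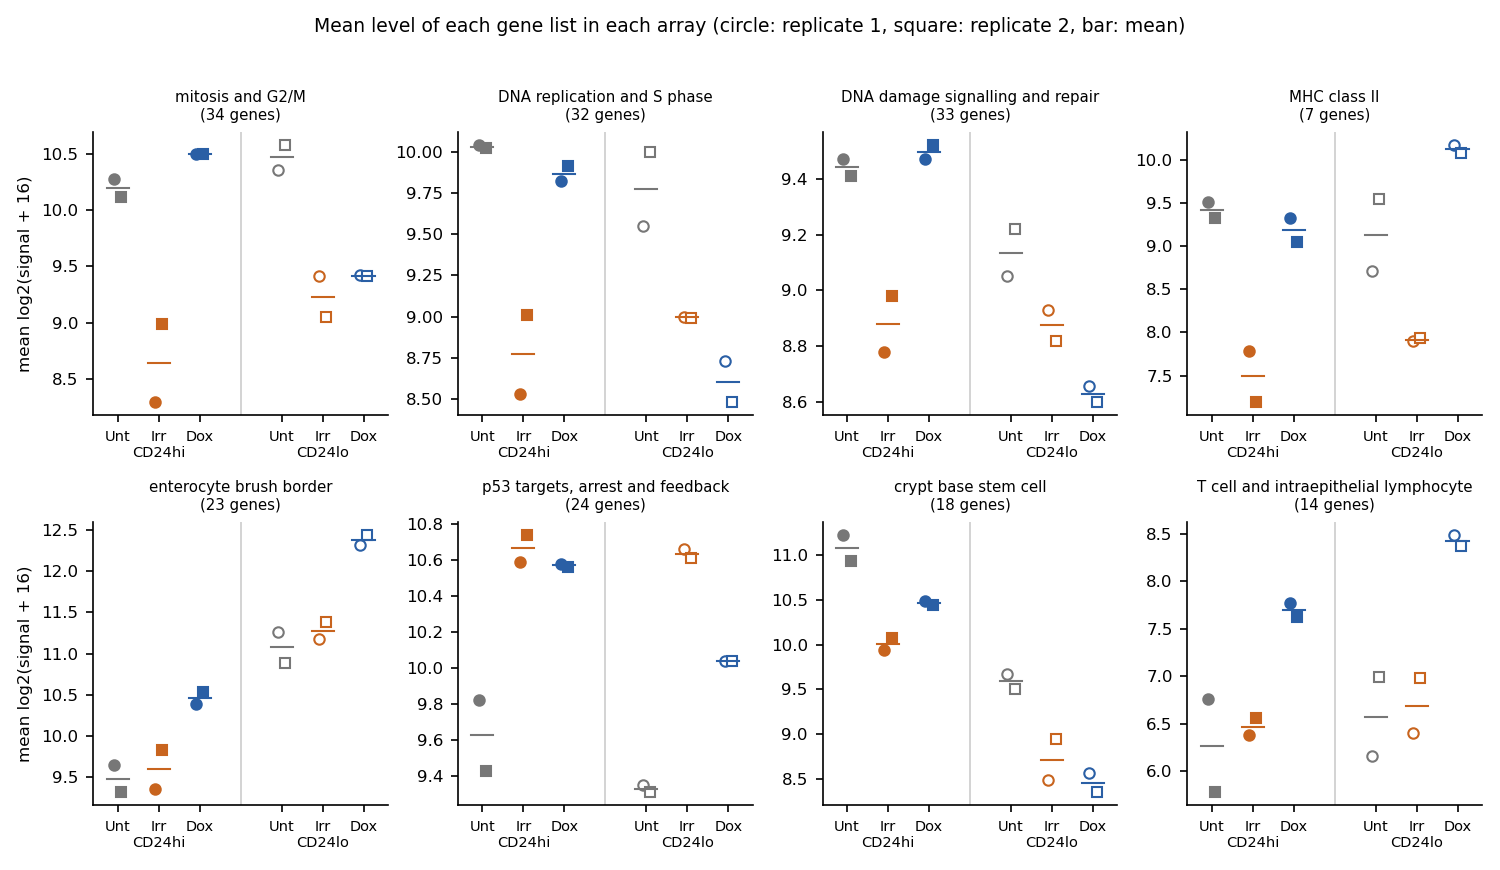
Mean log2(signal + 16) of 8 gene lists in each array of untreated (Unt), irradiated (Irr) and doxorubicin-treated (Dox) CD24hi cells (filled) and CD24lo cells (open), with a circle for replicate 1, a square for replicate 2 and a bar for the group mean; each panel has its own vertical range. In CD24hi cells the irradiated arrays are the low ones for mitosis, replication, repair and MHC class II, while for p53 targets both injured pairs lie above the untreated pair.

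Promoters of the mitotic genes are shown because so many members moved together. Many late cell cycle genes are known to carry a CHR element (cell cycle genes homology region) and CCAAT boxes, which the DREAM complex, MuvB and NF-Y read. The 100 bases before the RefSeq start (GRCm38.p6) were searched on both strands for the CHR letters TTTGAA and for CCAAT. The letters of both motifs can overlap, but no matches overlap in the windows printed. A window was matched for 29 of the 34 genes. CHR letters stood in 7 of the 29 (24.1%), against 5.91% of 27025 promoters of the same length and 3.09% of the 9624 tested genes with a window. CCAAT stood in 21 of the 29 (72.4%), against 19.6% and 22.9%. Not every window counted was also written out. Among the called members written out, the 5 that held both motifs were Top2a, Cdk1, Cdc20, Kif11 and Ckap2l, and Hmmr is added for its difference. Capitals mark the matches on either strand, the sequences run 5′ to 3′ on the gene's strand, and a match of letters is not a measured binding site.
Top2a, chr11:99024190-99024289, minus strand: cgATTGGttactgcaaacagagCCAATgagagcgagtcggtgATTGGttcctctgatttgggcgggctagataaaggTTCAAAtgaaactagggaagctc
Cdk1, chr10:69352913-69353012, minus strand: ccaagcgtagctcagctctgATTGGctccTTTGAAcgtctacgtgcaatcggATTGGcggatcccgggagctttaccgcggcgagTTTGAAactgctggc
Cdc20, chr4:118437344-118437443, minus strand: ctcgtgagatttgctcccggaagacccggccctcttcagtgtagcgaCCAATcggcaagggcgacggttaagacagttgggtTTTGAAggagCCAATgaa
Kif11, chr19:37376282-37376381, plus strand: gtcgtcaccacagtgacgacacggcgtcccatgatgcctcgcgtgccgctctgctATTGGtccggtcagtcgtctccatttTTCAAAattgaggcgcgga
Ckap2l, chr2:129297213-129297312, minus strand: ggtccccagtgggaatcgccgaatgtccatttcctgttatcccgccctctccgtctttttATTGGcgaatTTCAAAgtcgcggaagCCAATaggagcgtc
Hmmr, chr11:40733438-40733537, minus strand: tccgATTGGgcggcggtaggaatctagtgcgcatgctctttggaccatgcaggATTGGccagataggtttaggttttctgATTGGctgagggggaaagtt
Cdk1, the kinase of mitotic entry, read 11.27 and 11.05 after doxorubicin and 8.99 and 10.14 after irradiation, a difference of 1.6 ± 0.31 (adjusted p = 0.006). Cdc20, an activator of the anaphase promoting complex, differed by 1.92 ± 0.26 (adjusted p = 0.000309), and Kif11, the kinesin that separates spindle poles, by 2.17 ± 0.22 (adjusted p = 4.25e-05). The spindle protein gene Ckap2l differed by 2.03. In each of these the 2 doxorubicin arrays read above the 2 irradiated arrays.

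Genes of DNA replication moved the same way with smaller differences. Of 32 tested members 19 were higher after doxorubicin and 0 lower, with a median of 1.03. The list mean was 9.82 and 9.91 after doxorubicin, 8.53 and 9.01 after irradiation, and 10.04 and 10.02 in untreated cells. Doxorubicin arrays lay slightly under the untreated ones and irradiated arrays well under both. Mcm10, which helps assemble the replisome, read 10.87 and 10.76 against 8.31 and 9.35, a difference of 1.99 ± 0.32 (adjusted p = 0.00119). Mcm6, a subunit of the replicative helicase, read 11.15 and 11.26 after doxorubicin, 9.01 and 9.82 after irradiation, and 11.28 and 11.29 in untreated cells. Only the irradiated pair of these 3 was low, and the difference between injuries was 1.79 ± 0.25 (adjusted p = 0.000417). Pole, the catalytic subunit of the leading-strand polymerase, differed by 1.82 ± 0.32 (adjusted p = 0.0026), and Pola1, which primes new strands, by 1.69 ± 0.37 (adjusted p = 0.012). The count fell to 2 without irradiated replicate 1, to 7 and 3 without doxorubicin replicate 1 and 2, and to 9 with the Xist term, while the median stayed between 0.87 and 1.09 in those fits. Without irradiated replicate 1 Pole and Pola1 were at adjusted p = 0.0727 and 0.197.

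Genes of DNA damage signalling and repair were also higher after doxorubicin, in 9 of 33 tested members with 0 lower and a median of 0.36. The 9 were Rad51ap1, Exo1, Brca2, H2ax, Atr, Brca1, Chek2, Blm and Palb2, most of which act in homologous recombination or at stalled forks and are known to rise in dividing cells. Rad51ap1, a factor of homologous recombination, read 8.74 and 8.56 after doxorubicin, 6.29 and 6.88 after irradiation, and 8.38 and 8.28 in untreated cells. The irradiated arrays were again low, and the difference was 2.07 ± 0.3 (adjusted p = 0.000566). Brca2, a mediator of homologous recombination, read 8.63 and 8.26 against 6.52 and 7.08, a difference of 1.64 ± 0.29 (adjusted p = 0.00298). Exo1, a nuclease that resects ends, differed by 1.67 ± 0.34 (adjusted p = 0.00777), and the kinase gene Atr by 1.31 ± 0.19 (adjusted p = 0.000565). H2ax, the histone variant phosphorylated at breaks, differed by 1.49 ± 0.34 (adjusted p = 0.0173). Against untreated cells 9 members were lower after irradiation and 0 higher, and 0 were called after doxorubicin (5 at an unadjusted p under 0.05). Without irradiated replicate 1 the count of 9 became 2, with Brca2 at adjusted p = 0.0884, Exo1 at 0.163 and H2ax at 0.207. It was 5 and 3 without doxorubicin replicate 1 and 2 and 6 with the Xist term, under which H2ax was at 0.99 (adjusted p = 0.102).

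p53 targets of arrest and feedback were called in both directions between the injuries. Among 24 tested genes 1 was higher and 1 lower after doxorubicin than after irradiation, with a median of -0.14, and 6 had an unadjusted p under 0.05. Over all 11854 genes 4.56% were called and 2133 had an unadjusted p under 0.05. In 12 of the 24 both doxorubicin arrays read below both irradiated arrays and in 7 above, while over all genes the pairs did not overlap in 57.3%. Among 14 cell death targets 0 were called (3 at an unadjusted p under 0.05 with limma; median -0.14). Against untreated cells 11 of the 24 were higher after doxorubicin (median 0.91) and 10 after irradiation (median 0.76), with 0 lower in either. The list mean was 10.58 and 10.56 after doxorubicin, 10.59 and 10.74 after irradiation, and 9.82 and 9.43 in untreated cells, so the doxorubicin pair lay just under the irradiated pair and both lay above untreated. In the 4 arrays alone 6 of the 24 were lower and 1 higher. The list also holds genes of dividing cells, such as Ckap2, and their part in its mean and median was not tested.

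Cdkn1a, which encodes p21, read 12.62 and 12.36 after doxorubicin, 13.34 and 13.68 after irradiation, and 11.53 and 11.31 in untreated cells. The 3 groups did not overlap, with the irradiated arrays highest, but the difference between injuries, -1.02 ± 0.29, missed the threshold at adjusted p = 0.0544. Cdkn1a was called with quantile normalization, in the 4 arrays alone and without CD24hi NICD replicate 2 (adjusted p = 0.0136). Phlda3, which restrains Akt, read 9.77 and 9.71 after doxorubicin, 10.28 and 10.64 after irradiation, and 7.07 and 5.66 in untreated cells. It was far above untreated after both injuries, by 3.37 (adjusted p = 0.000697) and 4.1 (adjusted p = 4.41e-05), and its difference between injuries was -0.72 ± 0.44 (adjusted p = 0.426). Ccng1, which encodes cyclin G1, read 13.84 and 13.79 against 13.81 and 13.89, and Mdm2, the ubiquitin ligase of p53, differed by -0.13 ± 0.3 (adjusted p = 0.876). The arrays of the injuries overlapped in both genes. The gene called higher was Ckap2, a mitotic spindle protein, at 1.64 ± 0.31 (adjusted p = 0.00411), and the gene called lower was Dcxr, a carbonyl reductase, at -0.86 ± 0.24 (adjusted p = 0.0455). Dcxr lost its call without any 1 of the 4 arrays (adjusted p = 0.141 to 0.277) and with the Xist term (0.161), and Ckap2 without irradiated replicate 1 (0.11) or doxorubicin replicate 1 (0.0778).

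**Figure D3:**
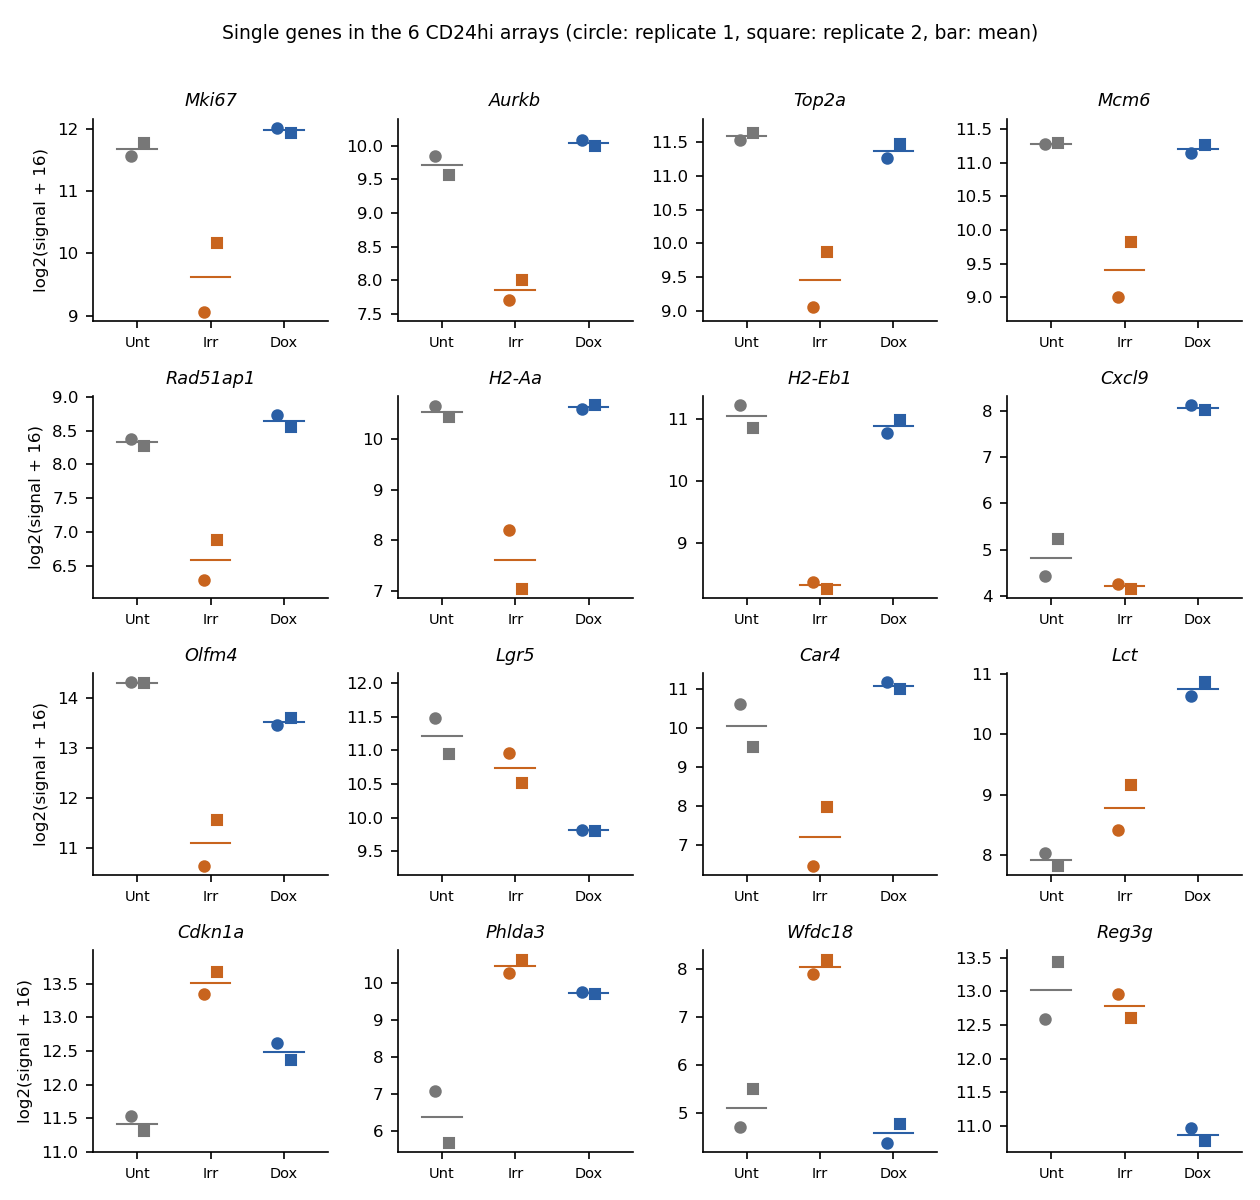
Level of 16 genes, as log2(signal + 16), in the 6 CD24hi arrays, untreated (Unt), irradiated (Irr) and after doxorubicin (Dox), with a circle for replicate 1, a square for replicate 2 and a bar for the mean; each panel has its own vertical range. Mki67 and H2-Eb1 are low only in the irradiated arrays among these 6, Cxcl9 and Lct are high only in the doxorubicin arrays, and Phlda3 is above untreated after both injuries.

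A second group that set the injuries apart was MHC class II, the proteins that present peptides to CD4 T cells and that crypt cells are known to express under interferon gamma. Of 7 tested members 5 were higher after doxorubicin and 0 lower, with a median of 1.96. H2-Aa, an alpha chain, read 10.59 and 10.66 after doxorubicin, 8.2 and 7.04 after irradiation, and 10.64 and 10.42 in untreated cells. The doxorubicin arrays were at the untreated level, and the difference between injuries was 3.01 ± 0.33 (adjusted p = 6.66e-05). H2-Eb1, a beta chain, read 10.78 and 10.98 against 8.37 and 8.25, with 11.22 and 10.86 in untreated cells, and differed by 2.57 ± 0.23 (adjusted p = 3.83e-05). H2-DMa, which helps load peptides, read 8.31 and 8.11 against 6.25 and 6.14 and differed by 2.02 ± 0.26 (adjusted p = 0.000259). Cd74, the invariant chain, differed by 1.96 ± 0.3 (adjusted p = 0.000891) and H2-Ab1, a beta chain, by 1.38 ± 0.24 (adjusted p = 0.00278). Ciita, the coactivator that switches these genes on, read 7.47 and 7.11 after doxorubicin and 6.9 and 7.25 after irradiation, and its arrays overlapped (0.22 ± 0.33, adjusted p = 0.803). Against untreated cells 5 members were lower after irradiation (median -2.65) and 0 were called after doxorubicin (2 at an unadjusted p under 0.05 with limma, median -0.18). The count stayed at 5 with each of the 4 arrays left out and with the Xist term.

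The promoters of the 2 chains with the largest differences are shown for the CCAAT letters that form the Y box of class II promoters, a known site of NF-Y. In the 100 bases before the RefSeq start (GRCm38.p6) these letters stood in 3 of the 4 class II genes with a window. They stood in 22.9% of the tested genes with a window and 19.6% of all promoters. Capitals mark each match on either strand. H2-Eb1 holds 2 matches, and which marked letters belong to a Y box was not tested.
H2-Aa, chr17:34287824-34287923, minus strand: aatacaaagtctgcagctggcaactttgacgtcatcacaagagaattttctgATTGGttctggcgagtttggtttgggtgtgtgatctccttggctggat
H2-Eb1, chr17:34305767-34305866, plus strand: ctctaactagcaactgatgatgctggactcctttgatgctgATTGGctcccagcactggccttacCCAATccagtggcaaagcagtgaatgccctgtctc

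Among 26 genes of the interferon gamma response 3 were higher after doxorubicin and 0 lower, with a median of 0.31. Cxcl9 read 8.12 and 8.01 after doxorubicin, 4.26 and 4.15 after irradiation, and 4.42 and 5.22 in untreated cells. It was high after doxorubicin alone among these arrays, and against untreated it rose by 3.24 (adjusted p = 0.00164). Its irradiated and untreated values lay below the array medians of 6.87 to 7.45, where signal and background are not separated, and its second probe set differed by 1.33. Its call between the injuries was lost with a pseudocount of 1. Psmb9 and Psmb8, subunits of the immunoproteasome, differed by 1.38 ± 0.2 (adjusted p = 0.000476) and 0.83 ± 0.18 (adjusted p = 0.0102). Psmb9 read 10.37 and 10.3 after doxorubicin, 8.71 and 9.19 after irradiation, and 11.06 and 10.9 in untreated cells. For both genes the irradiated pair was the low one, and doxorubicin lay under untreated. Against untreated cells 1 interferon gamma member was higher and 1 lower after doxorubicin, and 0 were higher and 6 lower after irradiation. Cxcl10, a related chemokine, read 7.18 and 7.07 against 6.43 and 5.81, a difference of 1.0 ± 0.61 (adjusted p = 0.428). Of 31 type I interferon antiviral genes 0 were higher and 2 lower, with a median of -0.23. These were Stat2, a signal transducer of the type I receptor, at -0.89 ± 0.21 (adjusted p = 0.0195), and Isg20, an exonuclease, at -1.04 ± 0.29 (adjusted p = 0.049). Against untreated cells 5 type I members were lower after doxorubicin (median -0.92) and 2 after irradiation (median -0.53), with 0 higher in either. Psmb8 lost its call without irradiated replicate 1 (adjusted p = 0.206) or either doxorubicin array (0.12 and 0.0691), and Stat2 and Isg20 without any 1 of the 4 arrays (0.0839 to 0.164 and 0.077 to 0.41).

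T cell genes read higher in the doxorubicin arrays, but none of those listed passed the test. Of 14 tested members of the T cell and intraepithelial lymphocyte list 0 were called (8 at an unadjusted p under 0.05 with limma), and the median difference was 1.14. In 12 both doxorubicin arrays read above both irradiated arrays, where 57.3% of all genes had no overlap in either direction. The list mean was 7.77 and 7.62 after doxorubicin, 6.38 and 6.56 after irradiation, and 6.76 and 5.78 in untreated cells. Cd3e, a chain of the T cell receptor complex, read 7.27 and 6.95 against 4.89 and 5.4, a difference of 1.96 ± 0.62 (adjusted p = 0.0897), and Ptprc, the leukocyte antigen CD45, read 8.55 and 8.84 against 6.05 and 6.53 (2.4 ± 0.7, adjusted p = 0.0622). The doxorubicin arrays were the high ones for both genes. Igha, the heavy chain of immunoglobulin A, read 13.0 and 12.91 against 11.47 and 11.26, with 13.14 and 13.69 in untreated cells, and was called at 1.59 ± 0.43 (adjusted p = 0.0431). It lost that call without any 1 of the 4 arrays (adjusted p = 0.163 to 0.245) and with the Xist term (0.272). Of 10 B and plasma cell genes 1 was higher and 0 lower, and of 9 myeloid genes 0 were higher and 1, Lyz2, was lower. The part of these cells in the MHC class II and interferon gamma results was not tested.

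Stem cell genes split into members that differed and members that did not pass the test. Of 18 tested genes of the crypt base stem cell 5 were higher after doxorubicin and 0 lower, with a median of 0.21 and a range from -0.92 to 2.43. Olfm4, a secreted glycoprotein of crypt base cells and a Notch target, read 13.47 and 13.6 after doxorubicin, 10.64 and 11.57 after irradiation, and 14.32 and 14.3 in untreated cells. The irradiated arrays were far below the other 4, and the difference between injuries was 2.43 ± 0.31 (adjusted p = 0.000196). Aqp4, a water channel, read 10.93 and 10.92 against 8.35 and 9.15 and differed by 2.17 ± 0.27 (adjusted p = 0.000155). Ascl2, a transcription factor of these stem cells, read 9.5 and 9.34 against 6.69 and 7.81, with 9.9 and 9.16 in untreated cells, a difference of 2.17 ± 0.49 (adjusted p = 0.0162). Igfbp4, which binds insulin-like growth factors, differed by 1.86 ± 0.42 (adjusted p = 0.0148) and Cdca7, a chromatin protein of dividing cells, by 1.04 ± 0.25 (adjusted p = 0.0212). Other probe sets differed by 0.54 and 1.37 for Aqp4, 1.9 for Ascl2 and 1.21 to 2.01 for Igfbp4. Lgr5, the Wnt-linked receptor that defines the population, ran the other way. It read 9.82 and 9.81 after doxorubicin, 10.96 and 10.52 after irradiation, and 11.48 and 10.95 in untreated cells, with no overlap between injuries but a difference, -0.92 ± 0.56, that missed the threshold (adjusted p = 0.428). Smoc2, another gene of these cells, read 10.9 and 10.97 against 11.49 and 11.26 (-0.44 ± 0.22, adjusted p = 0.309). The count of 5 was 2 without irradiated replicate 1 or without either doxorubicin array. Ascl2 and Igfbp4 were at adjusted p = 0.279 and 0.272 without irradiated replicate 1, and with the Xist term the count was 5.

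Notch signalling keeps crypt progenitors from secretory fates. Of 18 tested Notch pathway genes 4 were higher and 0 lower, with a median of 0.16, and these were Olfm4, the receptors Notch2 (1.95 ± 0.31, adjusted p = 0.00108) and Notch1 (1.48 ± 0.3, adjusted p = 0.00814), and the feedback inhibitor Nrarp (1.52 ± 0.29, adjusted p = 0.00496). Notch2 read 9.88 and 9.72 after doxorubicin, 7.39 and 8.31 after irradiation, and 10.03 and 9.58 in untreated cells, so only the irradiated pair of these 3 was low. The second probe sets of Notch2, Notch1 and Nrarp differed less, by 0.87, 0.78 and 1.11. Hes1, a direct target, read 7.36 and 7.54 against 7.83 and 6.92, with overlap (0.07 ± 0.34, adjusted p = 0.948). Of 20 Wnt feedback and target genes 2 were higher and 0 lower, Ascl2 and the adhesion receptor Cd44 (1.48), with a median of -0.15. Notch1 and Nrarp were at adjusted p = 0.197 and 0.104 without irradiated replicate 1, and Cd44 was at 0.29 without that array and at 0.0729 with the Xist term.

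Some genes of absorptive enterocytes, the cells that line the villus, were higher after doxorubicin than after irradiation. Of 23 tested brush border genes 5 were higher and 0 lower, with a median of 0.73, and 11 had an unadjusted p under 0.05. The list mean was 10.39 and 10.53 after doxorubicin, 9.36 and 9.83 after irradiation, and 9.65 and 9.32 in untreated cells. Here the doxorubicin arrays were the ones that stood apart, and the irradiated arrays overlapped the untreated ones. Lct, the lactase of the brush border, read 10.63 and 10.86 after doxorubicin, 8.41 and 9.16 after irradiation, and 8.03 and 7.82 in untreated cells. Its difference between injuries was 1.95 ± 0.48 (adjusted p = 0.0267), and it rose by 2.82 after doxorubicin against untreated (adjusted p = 0.00669). Enpep, an aminopeptidase, differed by 2.31 ± 0.54 (adjusted p = 0.0197), Naaladl1, a peptidase, by 1.84 ± 0.27 (adjusted p = 0.000565), Ace, the angiotensin-converting enzyme, by 1.71, and Slc5a1, the sodium-glucose transporter, by 1.75 ± 0.38 (adjusted p = 0.0115). Alpi, the intestinal alkaline phosphatase, read 11.96 and 11.93 against 9.46 and 10.54, a difference of 1.95 ± 0.75 that missed the threshold (adjusted p = 0.163). Car4, outside this list, read 11.18 and 11.02 after doxorubicin, 6.45 and 7.96 after irradiation, and 10.62 and 9.52 in untreated cells, so for this gene the irradiated pair was the low one. Car4 lost its call without irradiated replicate 1 (adjusted p = 0.0767).

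Genes of fat handling followed the same order. Of 25 tested members 5 were higher and 0 lower, with a median of 0.83, and 18 had an unadjusted p under 0.05. Mogat2, which rebuilds triglyceride, differed by 1.82 ± 0.5 (adjusted p = 0.0473), and Mttp, which loads lipid onto apolipoprotein B, by 1.71 ± 0.43 (adjusted p = 0.0288). Apob itself read 11.82 and 11.83 after doxorubicin, 10.07 and 11.01 after irradiation, and 10.92 and 10.15 in untreated cells, a difference of 1.28 ± 0.35 (adjusted p = 0.0464). Angptl4, an inhibitor of lipoprotein lipase, differed by 1.67 ± 0.46 (adjusted p = 0.0473) and Dgat2, an acyltransferase, by 1.17. Of 28 xenobiotic metabolism genes 2 were higher and 0 lower, with a median of 1.14 and 15 at an unadjusted p under 0.05: Maob, a monoamine oxidase (2.41 ± 0.52, adjusted p = 0.0121), and Sult1b1, a sulfotransferase (1.87 ± 0.47, adjusted p = 0.0311). Both absorptive lists depended on single arrays. Without irradiated replicate 1 the brush border count was 1 and the fat handling count 0, with Enpep, Lct and Slc5a1 at adjusted p = 0.301, 0.307 and 0.252 and Mogat2, Mttp, Apob and Angptl4 at 0.509, 0.434, 0.493 and 0.487. Maob and Sult1b1 were then at 0.197 and 0.419. Without either doxorubicin array the counts were 1 and 0 as well. With the Xist term the counts were 12 for brush border, 16 for fat handling and 18 for xenobiotic metabolism, with 0 lower. The untreated array of the male pattern read higher in all 3 list means, at 9.65 against 9.32, 9.60 against 9.23 and 9.45 against 8.64.

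Genes of the oxidative stress response and of drug handling were tested because doxorubicin cycles between redox states. Of 31 Nrf2 and oxidative stress genes 3 were higher and 0 lower, with a median of 0.44. Nqo1, a quinone reductase, read 8.52 and 9.03 after doxorubicin, 6.96 and 7.09 after irradiation, and 8.02 and 7.41 in untreated cells, a difference of 1.75 ± 0.42 (adjusted p = 0.0217). The doxorubicin arrays were above the other 4. Me1, the cytosolic malic enzyme, differed by 1.53 ± 0.26 (adjusted p = 0.00191) and rose by 2.17 after doxorubicin against untreated (adjusted p = 0.000389). Mgst1, a glutathione transferase, differed by 1.47 ± 0.34 (adjusted p = 0.0176). Of 20 doxorubicin targets, exporters and reductases 2 were higher, Nqo1 and Top2a, and 0 lower. Without irradiated replicate 1 the oxidative stress count was 0, with Me1 at adjusted p = 0.0674, Nqo1 at 0.183 and Mgst1 at 0.265, and with the Xist term it was 11.

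**Figure D4:**
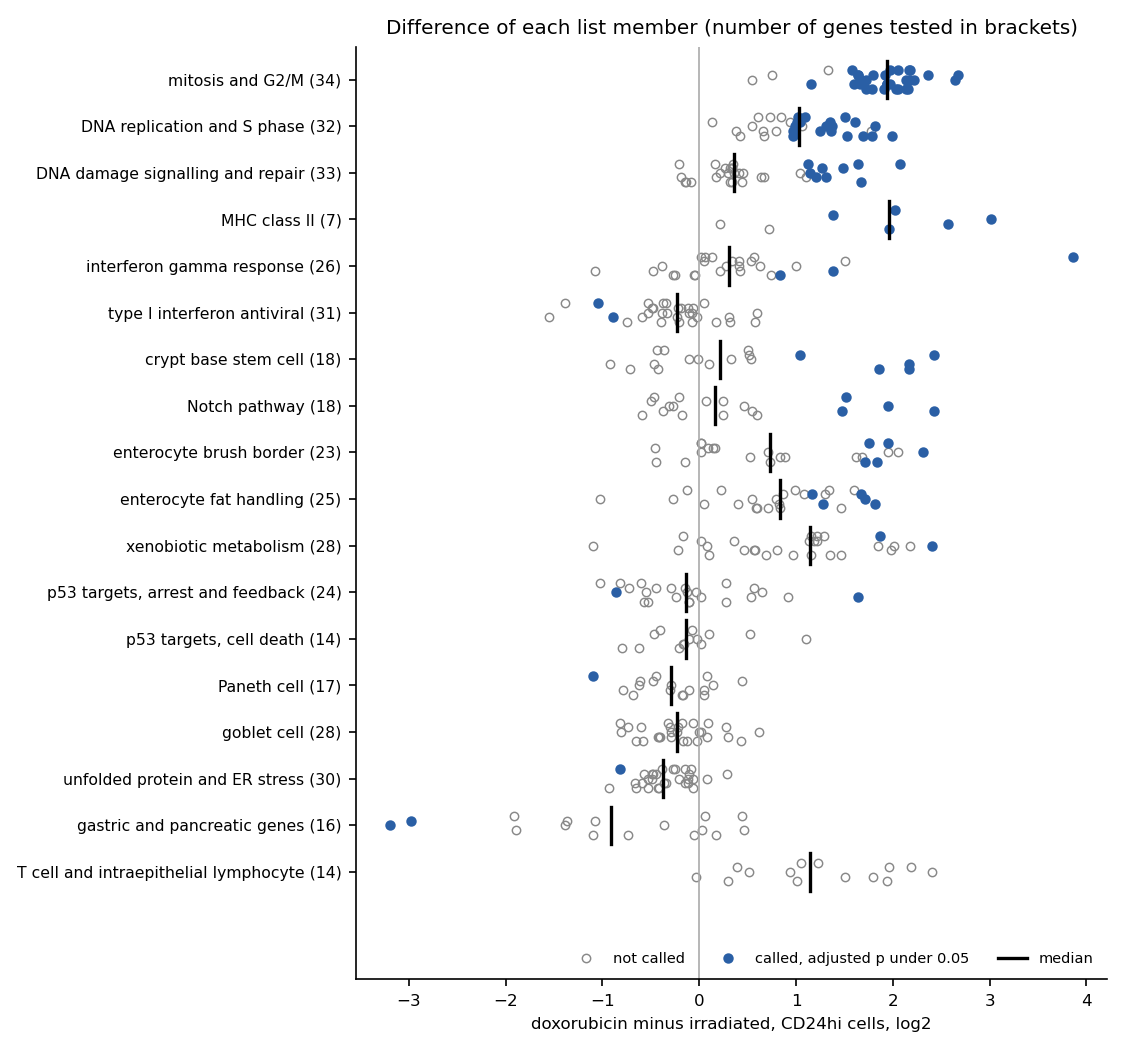
Difference between doxorubicin and irradiation in CD24hi cells, in log2 units, for each tested member of 18 gene lists, with filled points called at an adjusted p under 0.05, open points not called and a bar at the list median. Members of the mitosis list lie between 0.55 and 2.67 around a median of 1.94, whereas the 2 p53 target lists lie on both sides of 0.

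Secretory genes made up few of the calls, and most of those were lower after doxorubicin. Of 28 goblet cell genes 0 were called (8 at an unadjusted p under 0.05 with limma; median -0.23), and in 15 both doxorubicin arrays read below both irradiated arrays. Of 14 secretory lineage factors 0 were called (3 at an unadjusted p under 0.05; median -0.31), with Atoh1, the master factor of the lineage, at 12.89 and 12.82 against 13.29 and 13.0 (-0.29 ± 0.2, adjusted p = 0.501). Of 17 Paneth cell genes 1 was lower, Lyz2 (-1.1 ± 0.28, adjusted p = 0.0341), a lysozyme whose near-identical partner Lyz1 was at -0.61 ± 0.28 (adjusted p = 0.258), and the array may not part them fully. Of 23 enteroendocrine hormones and granins 1 was lower, Sct, which encodes secretin (-1.1 ± 0.25, adjusted p = 0.0164), while Chga read 9.2 and 9.25 against 8.56 and 9.7. Of 17 tuft cell genes 1 was higher, Gng13, a G protein gamma subunit (1.2 ± 0.33, adjusted p = 0.0493), with a list median of 0.60. Of 30 genes of the unfolded protein response 1 was lower, the chaperone Dnajb11 (-0.82 ± 0.21, adjusted p = 0.0345), and in 24 the arrays did not overlap and the doxorubicin pair was lower. Across all genes the pairs did not overlap in 57.3%, in either direction. Lyz2 and Sct lost their calls without any 1 of the 4 arrays (adjusted p = 0.0789 to 0.279 and 0.0585 to 0.149), Gng13 without irradiated replicate 1 (0.509) or either doxorubicin array (0.288 and 0.203), and Dnajb11 without either irradiated array (0.328 and 0.0532) or doxorubicin replicate 1 (0.393). With the Xist term 9 goblet cell genes, 9 unfolded protein response genes and 5 secretory lineage factors were lower.

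Of 10 tested genes of the Reg family and epithelial antimicrobials 1, Reg3g, was lower after doxorubicin and 0 were higher, with a median of -0.32. Reg1, a related lectin, read 12.24 and 12.28 after doxorubicin against 9.61 and 9.94 after irradiation, a difference of 2.48 ± 0.74 (adjusted p = 0.071). Wfdc18, the called gene with the most negative difference, read 4.38 and 4.79 after doxorubicin, 7.9 and 8.2 after irradiation, and 4.71 and 5.51 in untreated cells, so it was high only in the irradiated pair of these 3. Reg3g, an antibacterial lectin, read 10.97 and 10.78 after doxorubicin, 12.96 and 12.61 after irradiation, and 12.59 and 13.44 in untreated cells, a difference of -1.91 ± 0.28 (adjusted p = 0.000621). For Reg3g the doxorubicin pair was the low one, and it fell by 2.14 against untreated (adjusted p = 0.000721). Ltf, the iron-binding protein lactoferrin, read 7.04 and 5.48 against 8.42 and 8.73, with 5.57 and 5.72 in untreated cells (-2.31 ± 0.54, adjusted p = 0.0182). Rimklb, a glutamate ligase, read 4.65 and 4.22 against 7.33 and 7.37, with 7.24 and 6.93 in untreated cells (-2.91 ± 0.42, adjusted p = 0.000566). Agt, which encodes angiotensinogen, at -2.64 ± 0.59, and Inha, an inhibin subunit, at -2.6 ± 0.49, were likewise at the untreated level after irradiation and low after doxorubicin. Wfdc18, Reg3g and Rimklb kept their calls without any 1 of the 4 arrays and with the Xist term. After doxorubicin Wfdc18, Rimklb, Agt and Inha read below the array medians of 6.87 to 7.45, where signal and background are not separated. The size of their differences is therefore uncertain. Ltf, Agt and Inha lost theirs without irradiated replicate 1 (adjusted p = 0.122, 0.166 and 0.0814), and also without doxorubicin replicate 2 for Ltf (0.297) and Agt (0.167), without doxorubicin replicate 1 for Agt (0.0621) and Inha (0.09), and without irradiated replicate 2 for Ltf (0.0955).

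A few pancreatic enzyme genes were lower after doxorubicin than after irradiation in CD24hi cells. Of 16 tested gastric and pancreatic genes 0 were higher and 2 lower after doxorubicin, with a median of -0.91. Cpb1, a carboxypeptidase, read 5.6 and 5.92 after doxorubicin, 9.56 and 8.35 after irradiation, and 4.63 and 4.56 in untreated cells, a difference of -3.19 ± 0.64 (adjusted p = 0.00665). Ctrb1, a chymotrypsinogen, read 6.6 and 6.58 against 9.98 and 9.15, with 5.98 and 6.57 in untreated cells (-2.98 ± 0.67, adjusted p = 0.0158). Cel, a lipase, differed by -2.72 ± 0.66 (adjusted p = 0.0235), and 2210010C04Rik, named only by its clone, by -3.43 ± 0.75 (adjusted p = 0.0124). In each of these 4 the irradiated pair was high, replicate 1 above replicate 2. The list mean was 7.77 and 7.09 in the irradiated arrays, and 8.03 and 8.25 in the CD24hi NICD arrays. In CD24lo cells the order was the opposite, with a list mean of 7.52 and 7.11 after doxorubicin and 5.97 and 6.05 after irradiation. Without irradiated replicate 1 the adjusted p was 0.165 for Cpb1, 0.216 for Ctrb1, 0.382 for Cel and 0.292 for 2210010C04Rik, and the calls were also lost without either doxorubicin array. With a pseudocount of 1 Cpb1, Cel and 2210010C04Rik lost their calls, and with the stricter filter 0 members of the list were called and its median was -0.05. Whether RNA of other cells entered these arrays was not tested.

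The same injuries were compared in CD24lo cells to see which differences the fractions shared. There 388 genes (3.27%) were called, 157 (1.32%) higher and 231 (1.95%) lower after doxorubicin. That split was 178 higher and 172 lower with centring on the 75th percentile, and 799 and 772 with the Xist term. Without CD24lo doxorubicin replicate 1 or 2 the count of 388 was 39 and 39, and without CD24lo irradiated replicate 1 or 2 it was 36 and 80. The difference between the fractions was tested as an interaction, with the arrays of the 2 fractions taken as independent. It was called for 118 genes (0.995%), with 108 (0.911%) more positive and 10 (0.0844%) more negative in CD24hi cells. A sex effect of equal size in both fractions cancels in this test. Mitosis genes differed between fractions in 19 of 34 members, all more positive in CD24hi cells, where the CD24lo median was 0.18. The CD24lo mean of that list was 9.42 and 9.41 after doxorubicin, 9.41 and 9.05 after irradiation, and 10.36 and 10.58 in untreated cells, so both injured CD24lo pairs were low. Hmmr, for example, differed by 0.08 in CD24lo cells and by 2.58 between the fractions (adjusted p = 0.00599). Replication genes differed in 11 of 32 members and repair genes in 5 of 33, all more positive in CD24hi cells. For MHC class II 0 of 7 members differed between fractions (2 at an unadjusted p under 0.05 with limma), and 6 were higher after doxorubicin in CD24lo cells as well (median 2.59), H2-Aa by 3.77 and H2-Eb1 by 2.9. Brush border genes were higher in 4 of 23 in CD24lo cells, and 0 differed between fractions (2 at an unadjusted p under 0.05 with limma). For p53 targets of arrest and feedback the CD24lo median was -0.63 with 6 of 24 lower after doxorubicin, Cdkn1a at -1.19 (adjusted p = 0.0331) and Phlda3 at -1.85 (adjusted p = 0.0302) among them. Between the fractions 1 of the 24 differed, more positive in CD24hi cells (5 at an unadjusted p under 0.05 with limma, median 0.48). Cdkn1a differed by 0.17 between the fractions (adjusted p = 0.973). Gastric and pancreatic genes differed in 4 of 16 members, all more negative in CD24hi cells. The T cell list mean in CD24lo cells was 8.49 and 8.37 after doxorubicin and 6.40 and 6.98 after irradiation, with 5 of 14 members higher. The 19 mitosis members became 0 without irradiated CD24hi replicate 1 and 29 without replicate 2. They were 5 and 3 without CD24lo doxorubicin replicate 1 and 2, and 3 and 17 without CD24lo irradiated replicate 1 and 2. The total of 118 became 7 and 9 without doxorubicin CD24hi replicate 1 and 2, 7 and 191 without irradiated CD24hi replicate 1 and 2, 21 and 24 without CD24lo doxorubicin replicate 1 and 2, and 21 and 77 without CD24lo irradiated replicate 1 and 2.

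**Figure D5:**
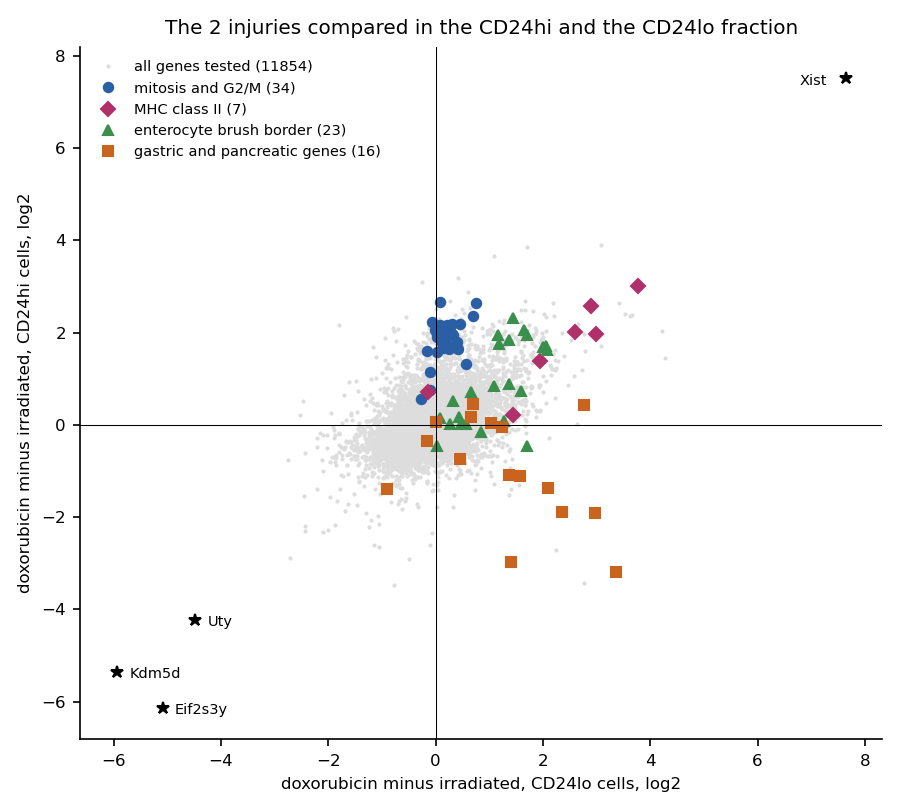
Difference between doxorubicin and irradiation, in log2 units, in CD24lo cells (horizontal) and CD24hi cells (vertical) for 11854 genes, with members of 4 lists coloured and Xist and 3 Y-linked genes starred. Mitosis genes (34) lie near 0 on the horizontal axis and above 0 on the vertical one, 6 of 7 MHC class II genes lie above 0 on both, and pancreatic genes lie to the lower right.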

How the data were processed

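The authors deposited linear signal intensity for 45101 probe sets on 21 arrays, amplified from 0.8 ng of RNA and made with MAS5, per the labels' protocols and the submitters' processing notes; its version is not given in the sources used here. The table used here holds no detection calls. Probe sets with 1 gene symbol were kept when above the array median in at least 2 of the 20 sorted arrays and transformed as log2(signal + 16), and the one with the highest mean stood for a gene (11854 genes, 1202 read by a type that can match related transcripts).

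Groups were compared with limma 3.58.1 (R 4.3.3): 10 group means, 10 residual degrees of freedom, trended variances, two-sided tests, Benjamini-Hochberg at 0.05. The procedure was first tested on simulated data of this design. Precision here is set by the number of arrays, not by a read depth. A fit without 1 array took the spread of its partner from the other groups. Alternatives changed the pseudocount (1 or 64), normalization, filter, probe set rule, variance model, arrays used and replicate block, and the Xist term was added after the values were seen.

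Members and lists were chosen with earlier results of these data known. Named genes were the 15 higher and 15 lower with the largest differences and no overlap, up to 4 called members per list, 20 fixed genes, and the 5 largest differences between fractions in each direction. The text names fewer, and adds Xist, Y-linked genes, Phlda3, Ciita, T cell genes and further members of the lists, chosen after their values were seen. Promoters came from RefSeq (GRCm38.p6).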

Additional observations from a re-analysis of the deposited data

Results flagged for a closer look

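The difference between doxorubicin and irradiation itself differed between CD24hi and CD24lo cells, by the interaction test of limma adjusted over all genes, for 24 of the genes named by the rule. Of these, 10 were named for having the 5 largest called differences in each direction, so that they pass was set by that choice. The others were all called between the injuries in CD24hi cells, and that difference is itself a term of this test. Their passing is therefore not independent of how they were named, and their number is not to be set against the share over all genes. Over all genes 118 of 11854 (0.995%) passed. That count was 7 and 9 without doxorubicin CD24hi replicate 1 and 2, 7 and 191 without irradiated CD24hi replicate 1 and 2, and 21 to 77 without 1 of the 4 injured CD24lo arrays. Each value is the CD24hi difference minus the CD24lo difference on the log2 scale. Most were cell cycle genes that were more positive in CD24hi cells. Among genes of centrosomes, spindles and chromosome segregation these were Cep128 (2.79), Hmmr (2.58), Aspm (2.02), Ttk (2.28), Stil (2.89), Esco2 (2.89), Nsl1 (2.82) and Cenpn (2.81). The second probe set of Nsl1 differed by -0.11 between the injuries in CD24hi cells, against 1.89 for the one used. With the mean of probe sets Nsl1 lost its call between the injuries. Among genes of replication, topology and repair they were Mcm10 (2.09), Pole (2.54), Mcm6 (1.88), Top2a (1.89), Rad51ap1 (2.77) and Brca2 (1.83).

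The stem cell genes Olfm4 (1.91) and Aqp4 (2.11), the chemokine gene Ccl28 (1.22) and the chaperone gene Hspa4l (1.15) were also more positive in CD24hi cells. Cd14, a receptor for bacterial lipopolysaccharide, stood at 2.98, from 0.51 in CD24hi cells and -2.47 in CD24lo cells. The pancreatic enzyme genes ran the opposite way, with Cpb1 at -6.56, 2210010C04Rik at -6.2, Cel at -4.97, Cela2a at -4.88 and Ctrb1 at -4.38. In CD24lo cells Cpb1 was higher after doxorubicin by 3.37 and Cela2a by 2.97, whereas in CD24hi cells both were lower (-3.19 and -1.91, the latter not called).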

How the results depend on the processing

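No called named gene changed sign between the injuries under the 18 alternatives, though not every gene was tested in each. Of 88 named genes called between the injuries, 27 kept their call under all of them. Of 17 named genes not called, 6 were called under at least 1. Fitting the 4 arrays alone raised the count of called genes to 1078 (729 higher, 349 lower), and the Xist term raised it to 1038 (734 higher, 304 lower). With the Xist term doxorubicin against untreated had 476 calls and the CD24lo comparison of the injuries 1571. The lower count was 58 with only the 10 CD24hi arrays. The CD24lo split of 157 higher and 231 lower became 178 and 172 with centring on the 75th percentile. Leaving out 1 of the 4 injured CD24hi arrays, or CD24hi NICD replicate 2, gave 119 to 632 calls, 111 to 503 higher and 8 to 129 lower. With the untreated CD24hi and injured CD24lo arrays also left out in turn for the comparisons they enter, an alternative added after seeing the data, the ranges were 26 to 153 for doxorubicin against untreated, 163 to 620 for irradiation against untreated, 36 to 541 for the injuries in CD24lo cells and 7 to 191 for the difference between fractions. The highest of these counts, apart from 191, came without CD24hi NICD replicate 2. No other sorted array was left out alone. That last count was 74 without a filter and 74 without the variance trend.

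Fat handling members called higher numbered 2 with centring on the 75th percentile, 2 without a filter, 3 with the mean of probe sets, 0 without the trend, 2 with robust variances, 11 in the 4 arrays alone, 1 in the 10 CD24hi arrays and 16 with the Xist term. Brush border members numbered 3 without the trend, 9 in the 4 arrays alone and 12 with the Xist term, and replication members 9 with the Xist term. Mitosis members that differed between fractions numbered 12 without the trend. With single arrays left out the ranges were 2 to 19 for replication, 1 to 5 for brush border, 0 to 5 for fat handling, 2 to 5 for stem cell, 2 to 10 for repair and 0 to 29 for mitosis between fractions. Apart from fewer arrays where some were left out, the cause of these changes was not tested.

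With the replicate block 516 genes were called (422 higher, 94 lower), and 92 for the difference between fractions. Residuals of arrays that share a number correlated at -0.41 to 0.385 over all pairs of the 10 groups (-0.076 between the injured CD24hi pairs). The numbers were not taken as pairs. In untreated and in Lgr5-ablated cells, however, the array of the female pattern had the same number in both fractions. The 2 fractions of a number may therefore share animals. A pairing of fractions by condition and number was not tested. Signal and background were not separated, so differences of genes under the array medians are least certain, and 2 arrays a group, with sex parallel to injury, limit every comparison.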

Other observations

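The further lists of metabolism and growth gave 0 to 2 calls each between the injuries in CD24hi cells, where 4.56% of all genes were called. Of 38 genes of the mitochondrial respiratory chain 0 were called (12 at an unadjusted p under 0.05 with limma, median 0.29). In 30 of them both doxorubicin arrays read above both irradiated arrays, where 57.3% of all genes had no overlap in either direction. Of 26 ribosome biogenesis and Myc target genes 0 were called (3 at an unadjusted p under 0.05; median 0.19), and of 26 ribosomal protein genes 1 was lower, Rplp2 (-0.72; adjusted p = 0.0572 with the Xist term). Of 13 heat shock genes 2 were higher after doxorubicin, the mitochondrial chaperonin Hspd1 (1.0 ± 0.16) and Hspa4l (1.08 ± 0.18), at adjusted p = 0.0593 and 0.0607 without irradiated replicate 1. Of 25 glycolysis and hypoxia genes 1 was higher, the carbonic anhydrase Car9 (1.39 ± 0.37).

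Signals between cells gave single calls. Hbegf, a ligand of the epidermal growth factor receptor, read 11.25 and 11.52 after doxorubicin, 9.85 and 10.18 after irradiation, and 10.41 and 10.94 in untreated cells, with the doxorubicin arrays above the other 4 (1.37 ± 0.29, adjusted p = 0.0106). Ccl28, a chemokine for plasma cells, was higher by 1.02 ± 0.17 and Id4, a target of bone morphogenetic proteins, was lower (-1.26 ± 0.31). Ppara, a fatty acid sensing receptor, was higher by 1.47 ± 0.38. Hbegf, Ccl28, Id4, Ppara and Car9 lost their calls without irradiated replicate 1 (adjusted p = 0.163, 0.0608, 0.304, 0.221 and 0.473). Hbb-b2, a beta globin with a near-identical partner, read 7.55 and 7.15 against 4.51 and 4.43, with 5.89 and 4.1 in untreated cells. Of 24 immediate early genes 0 were called (2 at an unadjusted p under 0.05 with limma), and of 20 pan-epithelial genes 0 were called (0 at an unadjusted p under 0.05; median 0.07).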
